A study of Mus musculus with 6 samples.

Results

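The apelin genes Apln (ligand) and Aplnr (receptor), the endocan gene Esm1, and Kcne3, Cxcr4 and Unc5b are 6 genes tied to endothelial tip cells. Aplnr is not particular to these cells and is found on the endothelium at large. All 6 were measured here in mouse mammary tumors after TKI258 or water, among 19937 genes with a probe set of their own. The genes were picked by symbol from probe sets that name exactly 1 gene, and where a gene had several, the brightest on average was to stand for it. Each of the 6 had only 1 such probe set, so no measured level decided that choice. The list itself was drawn up with the differences between the groups already known, and the differences below are therefore descriptions of these tumors. Their probe sets were 10407281 (Esm1), 10604375 (Apln), 10473444 (Aplnr), 10555297 (Kcne3), 10357472 (Cxcr4) and 10369388 (Unc5b).

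The tumors grew from 4T1 cells, a mouse mammary carcinoma line, of which 750000 were placed in the mammary gland of each Balb/C mouse. From day 7, 3 mice received TKI258 by mouth at 40 mg/kg daily for 14 days and 3 mice received water on the same schedule. Both groups thus carry the same graft in the same strain, and the labels give no age. TKI258, also called dovitinib, inhibits receptor tyrosine kinases that include the VEGF, FGF and PDGF receptors. One tumor per mouse went on 1 array, and values are log2 signals, so that a difference of 1 is a doubling.

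Tip cells are the migrating endothelial cells at the front of a growing vessel sprout. VEGF gradients guide them, and Notch signalling from the tip restrains the stalk cells behind. Esm1 encodes endocan, a proteoglycan secreted by activated endothelium. Apln encodes apelin, a peptide that tip cells release, and Aplnr its G protein-coupled receptor, which is found on stalk cells, veins and the endothelium at large. Kcne3 encodes an accessory subunit of voltage-gated potassium channels, Cxcr4 the receptor of the chemokine CXCL12, and Unc5b a repulsive guidance receptor for netrins. Several of these are not restricted to vessels. Cxcr4 is abundant on leukocytes, and apelin is also made by adipocytes.

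The 8 markers of mammary epithelium and tumor cells, among them the keratin genes Krt8 and Krt18, had list means of 8.95 to 9.19 in TKI258 tumors and 8.72 to 9.17 in water tumors. The 25 general endothelial genes averaged 6.95 to 7.32 in TKI258 tumors and 7.08 to 7.38 in water tumors. Array medians lay between 6.38 and 6.44, and no arrays were identical. TKI258 replicate 3 stood apart through lymphocyte genes, with means of 8.78 for B cell and 7.36 for T and NK cell markers. The other TKI258 tumors had B cell means of 5.17 and 5.31, against 6.91, 5.02 and 5.22 in water replicates 1, 2 and 3. Keratinocyte markers averaged 5.14 to 5.59 in TKI258 tumors, against 5.34, 7.34 and 7.11 in water replicates 1, 2 and 3. Correlations between arrays were 0.981 to 0.993 within TKI258, 0.988 to 0.992 within water and 0.973 to 0.992 between the groups, so the ranges overlapped.

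Esm1 had the clearest separation of the 6 genes. It stood at 5.52, 5.19 and 5.41 in TKI258 tumors, against 7.43, 7.92 and 7.19 in water tumors. No TKI258 tumor came near a water tumor, and the gap between the groups was larger than the range within either. The means were 5.37 ± 0.17 in TKI258 and 7.51 ± 0.37 in water tumors (SD, n = 3 each), a difference of -2.14 ± 0.20 (limma, SE) or a 4.41-fold lower signal in TKI258. By the limma p-value Esm1 ranked 2 of 19937 genes, and by size of difference 5. Its adjusted p over all 34760 probe sets was 0.196. At an adjusted p of 0.05 limma called 0% of probe sets, and at an unadjusted p of 0.05 it called 8.06%, 2803 in number. The TKI258 values of Esm1 also lay below every array median, in the range where arrays compress differences. In whole tumors, a change in the number of expressing cells and a change in RNA per cell cannot be told apart. This holds for Esm1 and for each gene below, and which cells gave the signal was not tested.

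**Figure D1:**
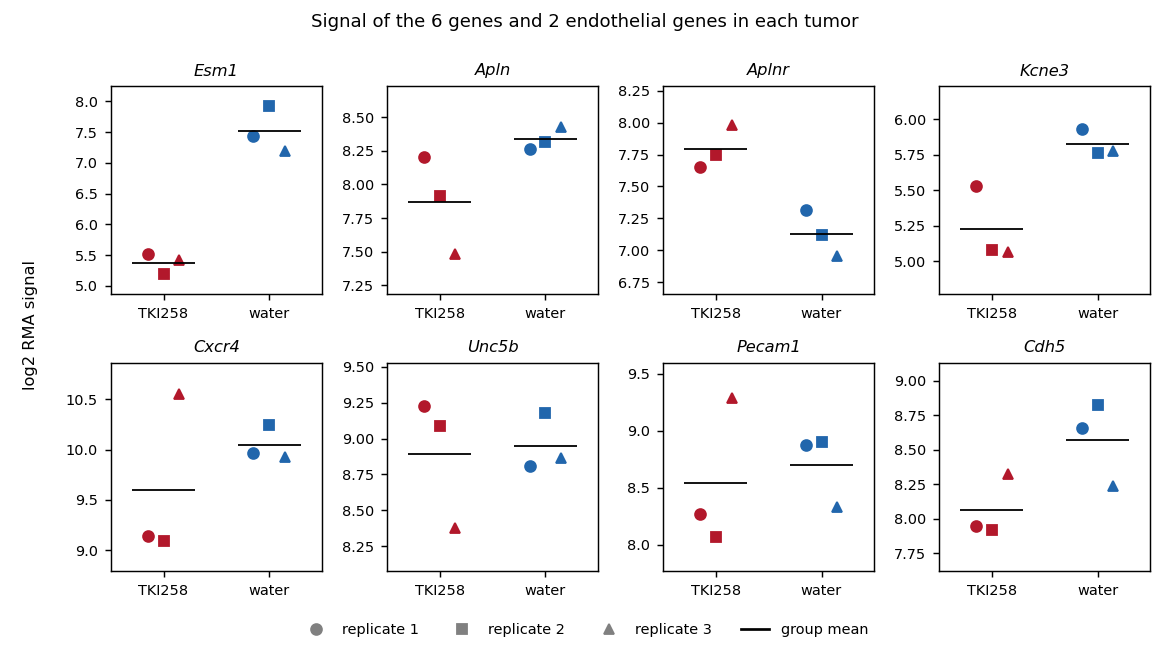
Log2 RMA signal (y axis, scaled per gene) of the 6 genes and of Pecam1 and Cdh5 in TKI258 tumors (red, left) and water tumors (blue, right). Each point is 1 tumor, its shape gives the replicate and the bar is the group mean. The groups are apart for Esm1, Apln, Aplnr and Kcne3 and overlap for Cxcr4, Unc5b, Pecam1 and Cdh5.

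The apelin ligand and its receptor stood on opposite sides. Apln signal was 8.21, 7.91 and 7.48 in TKI258 tumors, against 8.27, 8.32 and 8.43 in water tumors. All TKI258 tumors were below all water tumors, but TKI258 replicate 1 only narrowly, and TKI258 replicate 3 was the lowest. The means were 7.87 ± 0.37 in TKI258 and 8.34 ± 0.08 in water (SD, n = 3 each), a difference of -0.47 ± 0.18 or 1.39-fold lower (limma adjusted p = 0.613). Leaving out TKI258 replicate 3 brought the difference to -0.28.

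Aplnr was 7.65, 7.74 and 7.98 in TKI258 tumors, against 7.31, 7.12 and 6.95 in water tumors. Each TKI258 tumor was above each water tumor. The means were 7.79 ± 0.17 in TKI258 and 7.13 ± 0.18 in water (SD, n = 3 each), a difference of 0.66 ± 0.13 or 1.59-fold higher (limma adjusted p = 0.484).

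The log2 ratio of ligand to receptor within a tumor, which a scaling factor for the array leaves as it is, was 0.56, 0.17 and -0.50 in TKI258 tumors, against 0.95, 1.20 and 1.48 in water tumors. It differed by -1.14 between the groups. That its groups do not overlap follows from the 2 genes, which lay on opposite sides. The second apelin receptor ligand gene, Apela, had signals of 3.22 to 3.44 in TKI258 and 3.23 to 3.30 in water tumors. These are far below the array medians, and the groups overlapped.

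Kcne3 was lower in TKI258 tumors by a margin close to that of Aplnr in the other direction. Its signal was 5.53, 5.08 and 5.07 in TKI258 tumors, against 5.93, 5.76 and 5.78 in water tumors. The groups did not overlap, though every value was below the array medians. The means were 5.23 ± 0.26 in TKI258 and 5.82 ± 0.09 in water (SD, n = 3 each), a difference of -0.60 ± 0.15 or 1.51-fold lower (limma adjusted p = 0.548). Kcnq1, a channel subunit that Kcne3 binds, differed by -0.04 ± 0.09, and Kcne1, Kcne2 and Kcne4 by 0.07 to 0.17, none with an adjusted p under 0.05.

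Of the 6 genes, 3 were lower and 1 higher without overlap of the groups. Over all genes with a probe set, 6.49% had every TKI258 tumor below and 8.66% every TKI258 tumor above the water tumors. Since the genes were chosen with such values known, the count is a description. An unadjusted limma p under 0.05 was reached by the same 4 genes, against 4.20% of probe sets on the lower and 3.87% on the higher side.

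The promoters of the 3 genes that were lower without overlap are shown, since these genes were low in the same tumors. Each run is the 250 bases before the RefSeq start on the gene's strand (GRCm38.p6), 5′ to 3′, with capitals on the core of the hypoxia-response element, ACGTG or GCGTG on either strand.
Esm1, plus strand of chr13:113209409-113209658: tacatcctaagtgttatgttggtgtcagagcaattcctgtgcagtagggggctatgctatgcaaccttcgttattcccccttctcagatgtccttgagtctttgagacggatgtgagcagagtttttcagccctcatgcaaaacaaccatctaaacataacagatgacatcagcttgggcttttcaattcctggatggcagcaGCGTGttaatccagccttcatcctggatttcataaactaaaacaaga
Apln, minus strand of chrX:48034854-48035103: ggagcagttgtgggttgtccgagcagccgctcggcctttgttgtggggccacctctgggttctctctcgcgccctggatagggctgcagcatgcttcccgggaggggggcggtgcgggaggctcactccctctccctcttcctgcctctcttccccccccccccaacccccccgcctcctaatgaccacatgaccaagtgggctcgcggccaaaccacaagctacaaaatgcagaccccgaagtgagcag
Kcne3, plus strand of chr7:100176420-100176669: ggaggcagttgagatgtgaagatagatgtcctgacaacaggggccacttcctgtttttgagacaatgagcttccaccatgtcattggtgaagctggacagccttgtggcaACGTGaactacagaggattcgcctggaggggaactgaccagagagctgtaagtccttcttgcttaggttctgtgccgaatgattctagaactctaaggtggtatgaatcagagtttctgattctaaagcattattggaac

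The Esm1 window held 1 hypoxia core and the Kcne3 window 1, and the Apln window held none of these letters. The windows of Cxcr4 and Unc5b, whose groups overlapped, are not printed and held 1 hypoxia core each. The core was thus not particular to the genes that were lower. Of 32841 promoter windows of this length 38.6% hold either core. The ETS core GGAAG occurred 3 times before Apln and 2 times before Kcne3, and 64.1% of windows hold it. The AP-1 letters TGANTCA occurred once before Kcne3, and 6.75% of windows hold them. None of the 3 printed windows held the RBPJ letters GTGGGAA, found in 5.41% of windows. Both strands were searched for each motif. GGAAG and GTGGGAA can overlap, and ACGTG can overlap its own reverse strand match, which none of these windows held. RefSeq lists a further start of Kcne3, whose window held no hypoxia core. A match is a run of letters and was not tested as a binding site.

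Cxcr4 and Unc5b did not separate the groups, and the size of both differences moved with single tumors. Cxcr4 signal was 9.14, 9.09 and 10.56 in TKI258 tumors, against 9.96, 10.24 and 9.93 in water tumors. The lowest pair and the highest value were all TKI258 tumors. The difference was -0.45 ± 0.39, with a 95% interval of -1.37 to 0.47 (limma adjusted p = 0.753), and it was -0.93 ± 0.12 (adjusted p = 0.467) when the high tumor, TKI258 replicate 3, was left out. Without TKI258 replicate 1 or 2 the difference was -0.22 or -0.20. That tumor also had the highest B cell and T and NK cell means, 8.78 and 7.36, and the part of lymphocytes in its Cxcr4 signal was not tested. Cxcl12, the CXCR4 ligand gene, was 7.62, 7.54 and 8.09 in TKI258 tumors, against 7.11, 6.18 and 7.05 in water tumors, 0.97 ± 0.28 higher and without overlap (limma adjusted p = 0.572). The gene of the scavenging receptor for this ligand, Ackr3, differed by 0.32 ± 0.25 with overlapping groups.

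Unc5b signal was 9.22, 9.08 and 8.37 in TKI258 tumors, against 8.81, 9.18 and 8.86 in water tumors. The difference was -0.054 ± 0.23, with a 95% interval of -0.61 to 0.50 (limma adjusted p = 0.956), so a shift of either sign by up to about that size is not told apart from 0. It was 0.21 without TKI258 replicate 3 and 0.059 without water replicate 2, but -0.22 and -0.15 without TKI258 replicates 1 and 2. Leaving out either of the other water tumors gave -0.12 and -0.097. Among genes of netrin and its receptors, Ntn1 differed by 0.28 ± 0.16, Ntn4 by 0.19 ± 0.13 and Unc5c by 0.29 ± 0.15. Flrt2, which encodes an UNC5-binding membrane protein, differed by 0.24 ± 0.11, and none of these had an adjusted p under 0.05. Of all 21 measured ligand, receptor and channel partners 17 were higher and 4 lower in TKI258 tumors, where 43.4% of all genes were lower. The median difference was 0.15 against 0.02 over all genes. Several partners had signals far below the array medians, such as Kcne1 (means of 4.69 in TKI258 and 4.52 in water) and Kcne2 (4.85 and 4.69). Cxcl12 was the only partner with an unadjusted limma p under 0.05, against 8.06% of all probe sets.

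Pecam1 (CD31) and Cdh5 (VE-cadherin) encode adhesion proteins of endothelial junctions and served as a gauge of endothelial RNA in each tumor. Pecam1 was 8.27, 8.07 and 9.29 in TKI258 tumors, against 8.88, 8.90 and 8.33 in water tumors. Cdh5 was 7.95, 7.92 and 8.33 in TKI258 tumors, against 8.66, 8.83 and 8.24 in water tumors. The 2 genes differed unequally between the groups, Pecam1 by -0.16 ± 0.34 (limma adjusted p = 0.899) and Cdh5 by -0.51 ± 0.18 (adjusted p = 0.599), both with overlap. TKI258 replicate 3 was the highest of its group for both genes, and water replicate 3 the lowest of its group. The general endothelial list mean was 7.32 in TKI258 replicate 3, against 6.97 and 6.95 in TKI258 replicates 1 and 2. TKI258 replicate 3 also had the highest B cell and T and NK cell means, and the part of leukocytes in its Pecam1 signal was not tested. The mean of both genes was 8.30 ± 0.44 in TKI258 and 8.64 ± 0.31 in water tumors (SD, n = 3 each), a difference of -0.34 (exact permutation p = 0.3, two-sided).

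Set against this mean in the same tumor, the Esm1 separation remained and those of Apln and Kcne3 did not. Relative Esm1 signal was -2.59, -2.81 and -3.40 in TKI258 tumors, against -1.33, -0.95 and -1.10 in water tumors. That is a difference of -1.80, or 3.49-fold lower relative to the endothelial genes, without overlap (exact permutation p = 0.1, two-sided, the smallest that 3 against 3 tumors allow). Relative Aplnr signal was -0.46, -0.25 and -0.82 in TKI258 tumors, against -1.45, -1.75 and -1.33 in water tumors, a difference of 1.00 without overlap (exact permutation p = 0.1). The median of all genes differed by 0.02 as measured and by 0.36 on this scale. Beyond the median of all genes, the differences were -2.16 for Esm1 and 0.64 for Aplnr on both scales. Taking off the median cancels the subtracted endothelial genes, so these 2 values say nothing about that reference. Over all genes 0.0552% had every TKI258 tumor below and 3.95% every TKI258 tumor above the water tumors on the relative scale.

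Apln relative to the endothelial genes was 0.10, -0.08 and -1.33 in TKI258 tumors, against -0.50, -0.55 and 0.15 in water tumors, a difference of -0.14 with overlap. TKI258 replicate 3 was the lowest tumor, and the difference was 0.31 without it and 0.087 without water replicate 3. Relative Kcne3 differed by -0.26, and by 0.070 without TKI258 replicate 3. Relative Cxcr4 and Unc5b differed by -0.11 and 0.28, and the groups overlapped for both.

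**Figure D2:**
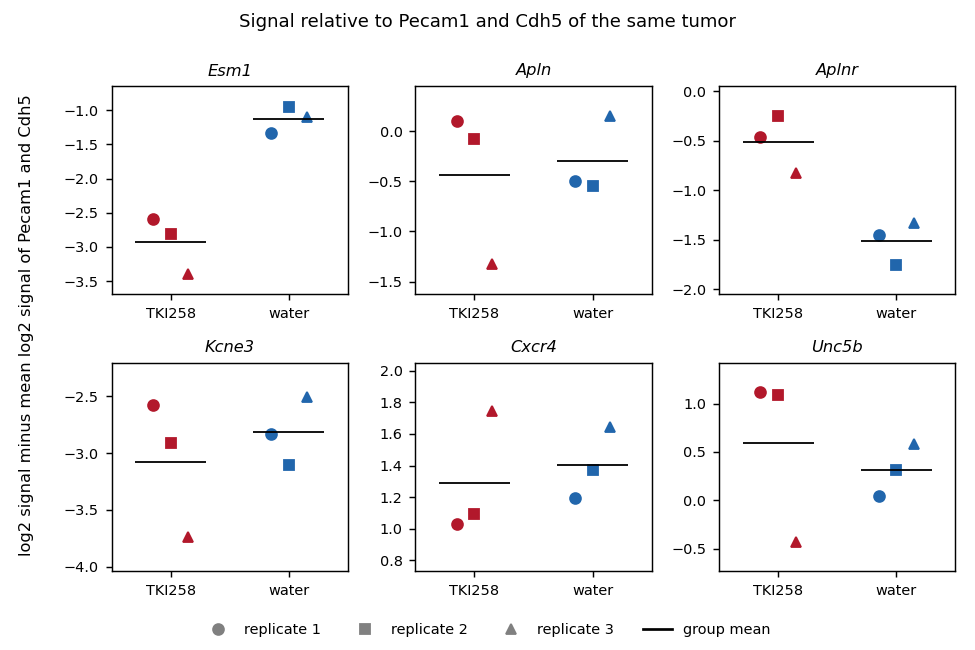
Log2 signal of each gene minus the mean log2 signal of Pecam1 and Cdh5 in the same tumor (y axis, scaled per gene), TKI258 tumors in red on the left and water tumors in blue on the right. Points are tumors and bars are group means. Esm1 and Aplnr keep their groups apart, and the other 4 genes overlap.

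The limma fit to the relative values gave Esm1 an adjusted p of 0.00196 and Aplnr one of 0.662, and it called 0.201% of probe sets. In that fit every probe set carries the same error of the 2 subtracted genes, the prior took infinite degrees of freedom, and all probe sets shared an SE of 0.37. The Esm1 call is therefore not read as established. With the relative values of the 6 genes added as rows to the table of deposited values, the differences were -1.80 ± 0.22 for Esm1 (limma adjusted p = 0.474) and 1.00 ± 0.18 for Aplnr (adjusted p = 0.479), and none of the 6 passed. The Esm1 call was also lost without water replicate 2 (-1.72, adjusted p = 0.324), and Aplnr gained one without TKI258 replicate 3 (1.16, adjusted p = 0.0174), in the fit with the shared error.

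**Figure D3:**
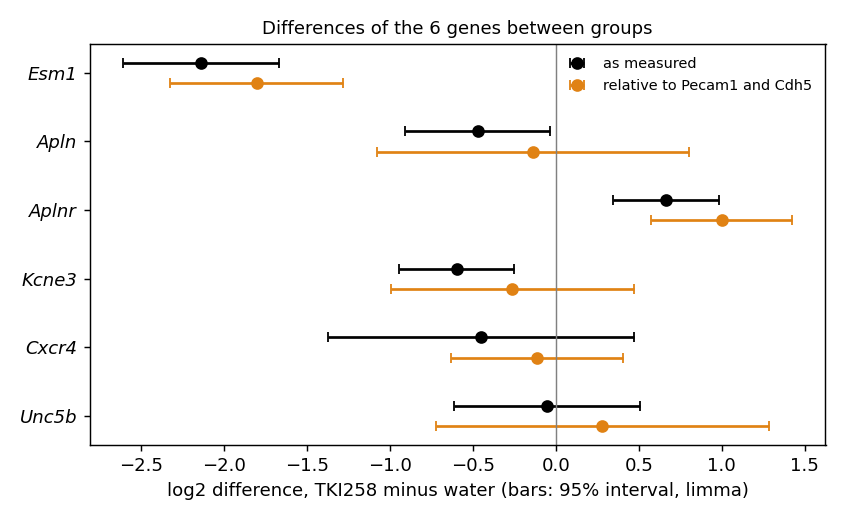
Log2 difference, TKI258 minus water (x axis), of the 6 genes as measured (black) and relative to Pecam1 and Cdh5 (orange, relative values added to the deposited table). Points are differences of means over 3 tumors each and bars are 95% limma intervals before adjustment for multiple tests. The Esm1 and Aplnr intervals stay clear of 0 on both scales, and those of Apln and Kcne3 include 0 once set against the endothelial genes.

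The 6 genes were also compared with one another inside each tumor, as 15 log2 ratios. Esm1 was lower against each of the other 5 genes, by -1.54 against Kcne3 and -1.67 against Apln, and by -2.80 against Aplnr. Apln and Kcne3 kept nearly the same ratio, 2.64 ± 0.21 in TKI258 and 2.52 ± 0.16 in water tumors (SD, n = 3 each, overlapping). These ratios restate the levels above in another form and were not counted as further results.

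Of 24 other genes reported in tip cells, all measured, 17 were lower and 7 higher in TKI258 tumors. The median difference was -0.21, against 0.02 over all genes. An unadjusted limma p under 0.05 was reached by 8 lower and 1 higher gene, against 4.20% and 3.87% of probe sets, and 8 lower and 1 higher gene had groups without overlap, against 6.49% and 8.66%. None passed after adjustment over all probe sets. This list, like the other gene lists here, was chosen with earlier results of these data known, so its counts are descriptions. The number of lower genes was 14 to 20 when single arrays were left out, and 18 without the 2 arrays highest in B cell markers, water replicate 1 and TKI258 replicate 3. The number of lower genes with an unadjusted p under 0.05 was 6 to 9 when single arrays were left out, and the median difference was -0.12 without water replicate 2.

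Igfbp3, which encodes an IGF-binding protein, was 7.51, 7.15 and 7.25 in TKI258 tumors, against 9.45, 9.88 and 9.30 in water tumors (-2.24 ± 0.17). The basement membrane gene Nid2 differed by -0.92 ± 0.23, Col4a2 by -0.60 ± 0.17, and the Notch ligand gene Dll4 by -0.55 ± 0.14, each without overlap. Angpt2, a TIE2 ligand gene of sprouting vessels, was 7.21, 6.83 and 6.76 in TKI258 tumors, against 7.65, 8.80 and 7.55 in water tumors (-1.06 ± 0.34), and water replicate 2 was its highest tumor. Kdr, the main VEGF receptor gene of tip cells, differed by -0.06 ± 0.22 with overlap, and Nrp1, its coreceptor gene named after its value was seen, by 0.46 ± 0.23. These tip cell genes thus ranged from 4.73-fold lower for Igfbp3 to 1.38-fold higher for Nrp1.

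**Figure D4:**
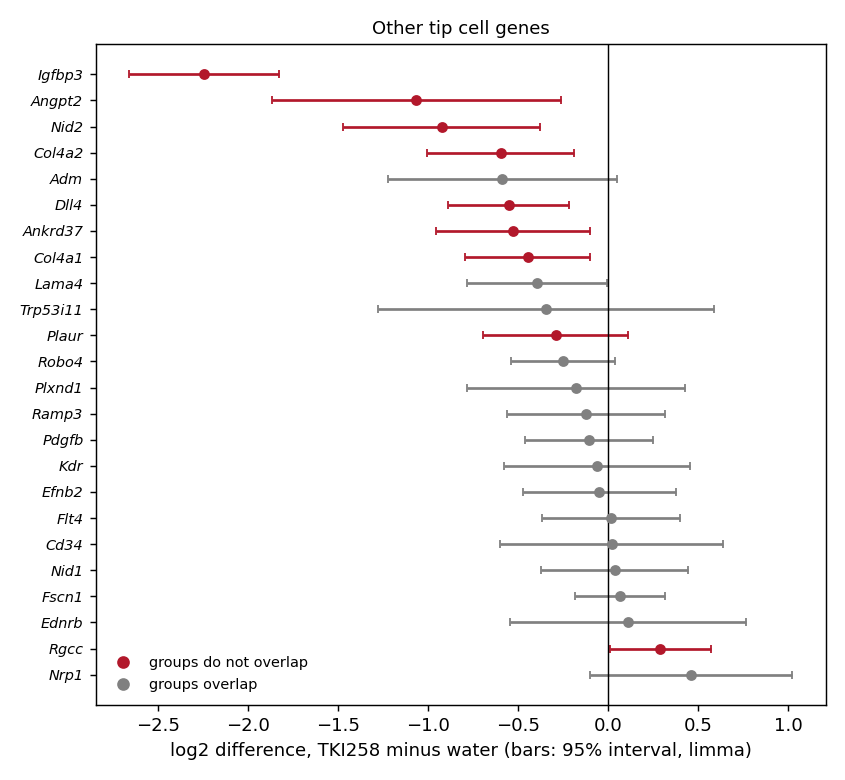
Log2 difference, TKI258 minus water (x axis), of the 24 other tip cell genes, ordered from the lowest. Points are differences of means over 3 tumors each, bars are 95% limma intervals before adjustment for multiple tests, and red marks genes whose groups do not overlap. Igfbp3 lies at -2.24, Angpt2 at -1.06 and Nid2 at -0.92, and the other 21 lie between -0.60 and 0.46.

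Genes of stalk cells, veins and resting vessels showed no common side, with 10 of 19 measured lower and 9 higher in TKI258 tumors and a median difference of -0.04. Vwf, the von Willebrand factor gene, was 6.98, 7.09 and 7.37 in TKI258 tumors, against 6.67, 6.64 and 6.72 in water tumors (0.47 ± 0.12). It stood on the same side as Aplnr. Flt1, which encodes a VEGF receptor that acts largely as a decoy, differed by -0.37 ± 0.13. General endothelial genes were lower in 17 of 25, with a median difference of -0.15 and overlapping list means. An unadjusted limma p under 0.05 was reached by 4 lower and 0 higher of the 25, against 4.20% and 3.87% of probe sets, and 5 were lower and 1 higher without overlap, against 6.49% and 8.66% of genes. Cd93 (-0.88 ± 0.22) and Emcn (-0.74 ± 0.16), both surface glycoproteins of endothelium, had the smallest p among them.

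Of 8 measured VEGF and FGF ligand genes 3 were lower and 5 higher in TKI258 tumors, with a median difference of 0.19 against 0.02 over all genes. An unadjusted limma p under 0.05 was reached by 2 higher and 0 lower ones, against 3.87% and 4.20% of probe sets. Vegfa, the main attractant of tip cells, was 9.79, 9.18 and 9.20 in TKI258 tumors, against 9.20, 9.22 and 9.65 in water tumors (0.04 ± 0.20). The lymphatic growth factor genes Vegfc (1.14 ± 0.30) and Vegfd (0.59 ± 0.21) were higher in TKI258 tumors without overlap, as were 8.66% of all genes. The lower ones, named after their values were seen, were Fgf1 (-0.95 ± 0.61), Pgf (-0.34 ± 0.28) and Vegfb (-0.16 ± 0.11), each with overlap. Of 15 measured hypoxia genes 11 were lower, as were 43.4% of all genes, and their median difference was -0.14 against 0.02 over all genes. Only Ankrd37 (-0.53 ± 0.18), also in the tip cell list, had an unadjusted limma p under 0.05, against 4.20% of probe sets on the lower side. The hypoxia list mean was 10.61, 10.34 and 10.16 in TKI258 tumors, against 10.32, 10.52 and 10.70 in water tumors.

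Cell types that can also express these genes differed between tumors. All 13 adipocyte markers were measured and 12 were higher in TKI258 tumors, with list means of 7.02, 7.57 and 8.20, against 6.97, 6.23 and 6.66 in water tumors. Apln, which adipocytes make, was lower in TKI258 tumors, and lowest in the one with the highest adipocyte mean. The part of adipocytes in the Apln signal was not tested. Neutrophil markers were lower in 11 of 14, with list means of 7.23, 7.02 and 6.73 in TKI258 tumors, against 7.35, 7.56 and 7.65 in water tumors. Both lists, like Apln and Aplnr, kept the groups apart, with TKI258 replicate 3 at one end and TKI258 replicate 1 nearest to water, and their part in these results was not tested. Mural cell markers averaged 7.13 to 7.42 in TKI258 and 7.40 to 7.43 in water tumors. Macrophage markers were lower in 12 of 13 and averaged 9.17 to 9.30 in TKI258 and 9.29 to 9.80 in water tumors. All 12 keratinocyte markers were lower, though the list mean of water replicate 1, 5.34, lay inside the TKI258 range. Mural cell markers were lower in 9 of 14 and fibroblast markers in 2 of 9, and all 5 lymphatic markers were higher. Over all genes 43.4% were lower. Fibroblast markers averaged 9.64 to 9.98 in TKI258 and 9.48 to 9.75 in water tumors, and the 5 measured lymphatic endothelial markers 6.29 to 6.65 in TKI258 and 6.21 to 6.33 in water tumors.

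**Figure D5:**
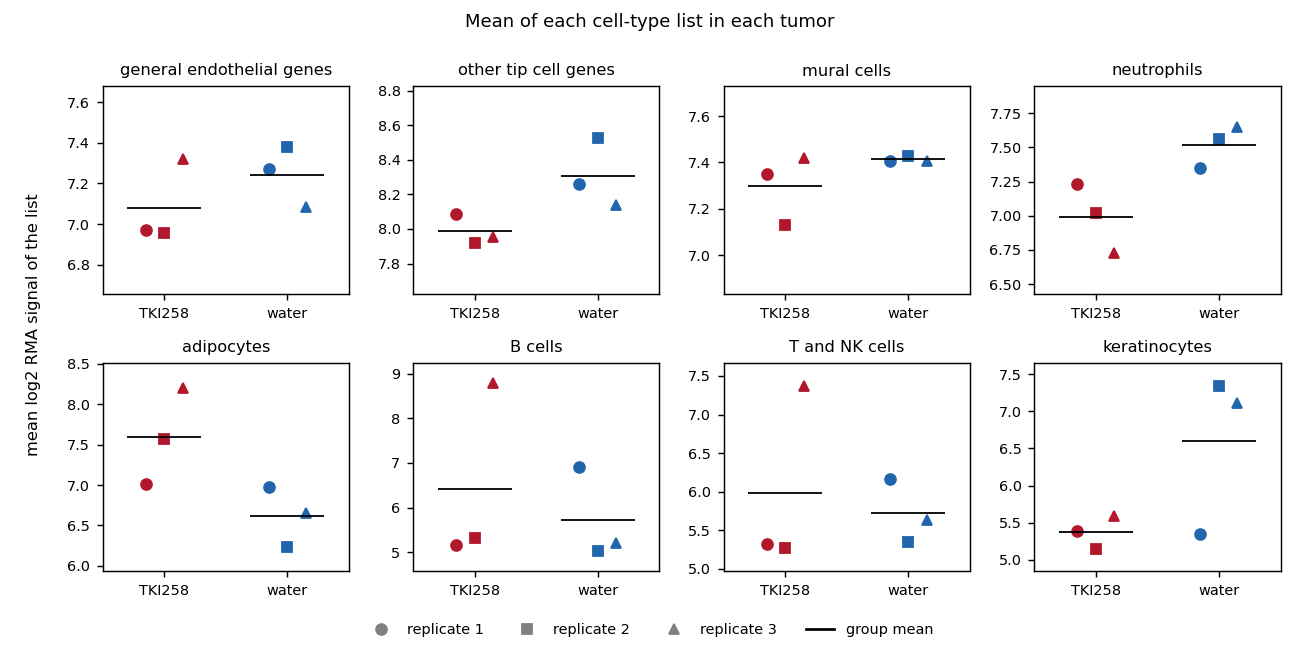
Mean log2 RMA signal (y axis, scaled per list) of 8 gene lists in TKI258 tumors (red, left) and water tumors (blue, right). Points are tumors and bars are group means. TKI258 replicate 3 stands out in B cell and T and NK cell markers, water replicates 2 and 3 in keratinocyte markers, and the adipocyte, neutrophil and other tip cell lists keep the groups apart.

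The genes whose pattern over the 6 tumors was most like that of each of the 6 were sought among 2626 or 2627 genes with a mean above the median gene and an SD of at least 0.2. Igfbp3 was most like Esm1 (Pearson r = 0.998 over 6 tumors), followed by the centromere gene Mis18a, the mitotic phosphatase gene Cdc25c and the protease gene Mmp3 (0.976 to 0.995). Aplnr was most like Aldh6a1, an enzyme gene of valine breakdown, the estrogen receptor gene Esr1, the Notch-modifying enzyme gene Lfng and Lrg1 (0.964 to 0.984). Kcne3 was most like the carbonic anhydrase gene Car13, the bone sialoprotein gene Ibsp, the integrin gene Itgb3 and the stress gene Ddit3 (0.951 to 0.977).

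Cxcr4 was most like Lcp1, Fyb, Lcp2 and Ptprm (0.978 to 0.987), and the first 3 encode leukocyte actin-binding and adaptor proteins. Apln was most like Leo1, Rhebl1, Smtn and Msantd2 (0.986 to 0.991), and Unc5b like Rhbdf1, Hspb6, Tpbg and Rilpl1 (0.991 to 0.994). An r above 0.9 was reached by 0.876% of the genes compared for Kcne3, 1.14% for Aplnr, 2.47% for Esm1, 2.82% for Cxcr4, 5.06% for Unc5b and 5.10% for Apln. With 6 tumors in 2 groups such values are descriptions of these arrays.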

How the data were processed

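RNA of 6 tumors, 3 TKI258 and 3 water by their titles, was hybridized to Affymetrix arrays, 1 per tumor. The deposited table holds log2 signals, 1 for each probe set and array, which the authors made with RMA, as the submitters' processing notes say. RMA corrects background, normalizes across arrays and sums up the probes of a probe set. The notes list affy and limma too. Tool versions and the genome build were not given in the sources used here. Spread within a group is between tumors that the titles call biological replicates. The number of arrays limits the precision.

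Of 34760 probe sets, 21640 name 1 gene (platform annotation), 1321 several and 11799 none listed. Matching to the RefSeq gene table (GRCm38.p6) by Entrez number covered 21553 and changed 0 symbols. Limma 3.58.1 (R 4.3.3), with group as the only term and eBayes, was fitted to all probe sets, and p-values were adjusted by Benjamini-Hochberg over all of them. SE and 95% intervals are the moderated ones. Relative values subtract the mean log2 signal of Pecam1 and Cdh5 in the same tumor. The fit was tested on simulated data. Members, gene lists and the naming rule were chosen with earlier results of these data known. The rule took the 6 genes, Pecam1, Cdh5, 10 partner and tip cell genes, the genes of each list with the smallest p, and the 4 most similar genes of each member. Some genes of the lists are not analysed here, and counts are over the measured ones. Promoters are those of RefSeq for 5 of the 6 genes.

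Alternatives were a low-signal filter, quantile normalization, median centring, a replicate block, another prior, array weights, arrays left out, other endothelial references and the mean of all probe sets. Adding relative values as rows of the table, and the counts of tip cell genes without single arrays, were chosen after seeing the data.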

Additional observations from a re-analysis of the deposited data

How the results depend on the processing

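As measured, Esm1, Apln, Aplnr, Kcne3 and Cxcr4 kept their direction under every alternative run, and none of the 6 genes had an adjusted p under 0.05 in any. The range was -2.30 to -1.94 for Esm1, -0.64 to -0.28 for Apln, 0.57 to 0.76 for Aplnr, -0.75 to -0.46 for Kcne3 (not kept by the low-signal filter) and -0.97 to -0.20 for Cxcr4. Leaving out 1 array gave -0.22 to 0.21 for Unc5b, whose direction turned to 0.17 with array weights and 0.14 without the 2 arrays highest in B cell markers (water replicate 1, TKI258 replicate 3). Relative to Pecam1 and Cdh5, leaving out 1 array gave -1.97 to -1.57 for Esm1, 0.87 to 1.16 for Aplnr, -0.40 to 0.31 for Apln, -0.51 to 0.070 for Kcne3, -0.34 to 0.016 for Cxcr4 and 0.019 to 0.79 for Unc5b. Relative Apln turned to 0.090 with array weights, 0.21 without these 2 arrays and 0.038 against Cdh5 alone, relative Kcne3 to 0.061 without these 2 arrays, and relative Cxcr4 to 0.060 against Cdh5 alone. The relative Esm1 call was lost against Pecam1 alone (-1.98, limma adjusted p = 0.101), with the replicate block (-1.80, adjusted p = 0.242) and with relative values as rows of the table (-1.80, adjusted p = 0.474), a range of 6.60e-07 to 0.474 over its alternatives. The lowest of these came with the mean of the general endothelial genes as reference (-1.98 ± 0.23). That fit too subtracts the same reference from every probe set. Aplnr passed against Cdh5 alone (1.18, adjusted p = 0.0126, range 0.0126 to 1.00). The cause was not tested. The number of probe sets called was 0 to 3 when 1 array was left out (3 without water replicate 1), 1 without the 2 arrays named and 2803 at an unadjusted p of 0.05. Same-numbered tumors of the 2 groups deviated together with r of -0.23, 0.19 and 0.0090. Not every tumor deviated most like its own number. No pairing by number was seen, though 3 tumors per group cannot exclude one. With the replicate block 0 probe sets passed as measured, as without it. Relative Esm1 lost its call, and no other of the 6 genes had a call to lose on either scale. Low signals of Esm1 and Kcne3 limit how well their size is known.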
